A study of Mus musculus with 4 samples.

Results

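The 10 immediate early genes examined were Fos, Fosb, Fosl1, Fosl2, Jun, Junb, Jund, Atf3, Egr1 and Ier2. They were chosen by name, as the rows of the deposited expression table with these symbols, and each name matched 1 of 54532 genes. Expression was measured by RNA sequencing in 4 mouse libraries, 2 labelled Piezo1KO and 2 labelled WT, and every library is labelled as CD4+ T cells sorted out of B16 tumours. B16 is a pigmented mouse melanoma line, and Piezo1 is a cation channel that opens under mechanical force. The study asked how Piezo1 acts when CD4+ cells become Th9 cells, which secrete interleukin 9. The labels give no age, no mouse strain and no further allele or agent, and they do not say how Piezo1 was deleted or in which cells. They also do not state whether a group's libraries are from different mice, so every p-value refers to library-to-library spread that may be purely technical. Libraries are numbered by the sample number in their titles.

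Immediate early genes are transcribed within minutes of a stimulus, without new protein synthesis, from promoters on which serum response factor and CREB sit in advance. FOS and JUN proteins pair through leucine zippers to form AP-1, which binds DNA at TGANTCA sites. EGR1 is a zinc finger factor that binds GC-rich sites. In T cells, AP-1 acts with NFAT downstream of the antigen receptor, and in most tissues the same genes also respond to growth factors and stress.

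The libraries carried little T cell RNA. Assigned reads numbered 13789266 to 15892797 per library. The 16 T cell markers had a summed FPKM (fragments scaled to gene length and sequencing depth) of 9.27 to 16.7 in the Piezo1KO libraries and 2.42 to 2.48 in the WT libraries, and 4 to 5 of them in Piezo1KO and 0 to 1 in WT reached an FPKM of 1. Cd3e and Cd5 were at 0 in Piezo1KO 2, Cd8a was at 0 in both WT libraries, and further T cell markers were at 0 in 1 WT library each. All 11 melanocyte markers reached an FPKM of 1 in every library, with sums of 6782 to 6809 in Piezo1KO and 6192 to 6223 in WT. As a share of assigned reads the order of the melanocyte markers turned, at 1.99% and 1.09% in Piezo1KO 1 and 2 against 2.44% and 2.50% in WT 1 and 2. Summed FPKM was also higher in both Piezo1KO libraries for the 8 neutrophil markers (51.7 to 153 in Piezo1KO, 1.25 to 1.39 in WT, with Ly6g at 0 throughout and Cxcr2 at 0 in WT 1), the 10 macrophage markers (274 to 395 in Piezo1KO, 69.8 to 94.4 in WT, none at 0) and the 6 erythroid markers (5124 to 8472 in Piezo1KO, 244 to 389 in WT, none at 0). For the 5 B cell markers it was 2.11 to 7.40 in Piezo1KO and 1.99 to 2.05 in WT, with Cd79b and Ms4a1 at 0 in Piezo1KO 2. The 5 endothelial markers summed to 5.02 to 5.32 in Piezo1KO and 3.90 to 6.55 in WT, and the 6 fibroblast markers to 6.26 to 13.2 in Piezo1KO and 4.80 to 6.56 in WT, none at 0. Shares of assigned reads gave smaller differences for Piezo1KO 2. There the macrophage markers took 0.0572% and 0.0212% in Piezo1KO 1 and 2 against 0.0188% and 0.0138% in WT 1 and 2. The T cell markers took 0.00354% and 0.00105% in Piezo1KO 1 and 2, against 0.00094% and 0.00073% in WT 1 and 2. The B cell markers were lower in Piezo1KO 2 (0.000203%) than in WT 1 and 2 (0.000435% and 0.000497%). Mitochondrial transcripts took 20.1% and 48.3% of assigned reads in Piezo1KO 1 and 2, against 3.86% and 2.99% in WT 1 and 2. In such mixed samples, fewer cells of a type and less RNA per cell cannot be told apart, and the part of these differences in the values that follow was not tested. Piezo1 itself had an FPKM of 18.7 and 7.64 in Piezo1KO 1 and 2 and of 27.8 and 27.6 in WT 1 and 2, which is -1.14 ± 0.41 (SE) as a log2 fold change and missed the threshold of 0.05 (limma adjusted p = 0.166).

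By the deposited coordinates the genes lie on 8 chromosomes of GRCm38, and Junb, Jund and Ier2 share chromosome 8. Ier2 (ENSMUSG00000053560) spans bases 84661331 to 84662852 of chromosome 8, Junb (ENSMUSG00000052837) bases 84974484 to 84978718 and Jund (ENSMUSG00000071076) bases 70698949 to 70700616. Fos (ENSMUSG00000021250) spans bases 85473890 to 85477273 of chromosome 12, Fosb (ENSMUSG00000003545) 19302696 to 19310051 of chromosome 7, Fosl1 (ENSMUSG00000024912) 5447703 to 5455945 of chromosome 19, and Fosl2 (ENSMUSG00000029135) 32135801 to 32157842 of chromosome 5. Jun (ENSMUSG00000052684) spans bases 95049034 to 95052222 of chromosome 4 and Atf3 (ENSMUSG00000026628) 191170296 to 191218039 of chromosome 1. Jun, Jund and Ier2 have 1 exon in every GENCODE M21 transcript, while the other 7 genes have at least 1 transcript of 2 or more exons. Junb overlaps 351 bases of Prdx2, a peroxiredoxin gene on the opposite strand, with an FPKM of 85.1 and 134 in Piezo1KO 1 and 2 and of 63.0 and 56.3 in WT 1 and 2. Fosl1 overlaps Ccdc85b on the opposite strand over 2766 bases. The labels give no strand setting for the counting, so reads from these overlaps cannot be assigned to 1 strand and the levels of Junb and Fosl1 are less certain.

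Promoter sequence from RefSeq (GRCm38.p6) was found for 7 of the 10 genes. It is shown for Fos, Fosb, Jun and Junb, the genes whose RefSeq start lay within 30 bases of the deposited gene start, because these are FOS and JUN subunits with unlike values below. Each line gives the 250 bases before the start, 5′ to 3′, and capitals mark motif matches on either strand. The motifs searched were the cAMP response element (CRE), TGACGTCA, and its core TGACG, which every full CRE also holds. The AP-1 site was searched as TGANTCA. The AP-1-like site known from the Jun promoter was searched as TGACATCA. The EGR site was searched as GCGNGGGCG and the TATA box as TATAAA. The windows are chr12:85473640-85473889 (plus strand) for Fos, chr7:19310046-19310295 (minus) for Fosb, chr4:95052223-95052472 (minus) for Jun and chr8:84978749-84978998 (minus) for Junb.
Fos: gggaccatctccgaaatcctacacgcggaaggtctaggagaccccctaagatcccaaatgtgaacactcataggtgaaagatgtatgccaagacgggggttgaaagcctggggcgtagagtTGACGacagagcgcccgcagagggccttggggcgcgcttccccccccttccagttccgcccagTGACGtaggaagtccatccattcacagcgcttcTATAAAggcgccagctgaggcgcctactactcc
Fosb: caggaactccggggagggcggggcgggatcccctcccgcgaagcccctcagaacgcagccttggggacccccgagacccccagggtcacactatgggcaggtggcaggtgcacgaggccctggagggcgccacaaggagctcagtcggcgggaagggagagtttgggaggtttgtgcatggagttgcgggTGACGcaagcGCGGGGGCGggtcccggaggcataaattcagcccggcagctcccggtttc
Jun: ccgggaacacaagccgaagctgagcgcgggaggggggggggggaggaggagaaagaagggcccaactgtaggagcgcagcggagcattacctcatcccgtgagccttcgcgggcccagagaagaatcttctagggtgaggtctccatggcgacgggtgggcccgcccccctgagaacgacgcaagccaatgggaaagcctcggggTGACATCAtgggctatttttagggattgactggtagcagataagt
Junb: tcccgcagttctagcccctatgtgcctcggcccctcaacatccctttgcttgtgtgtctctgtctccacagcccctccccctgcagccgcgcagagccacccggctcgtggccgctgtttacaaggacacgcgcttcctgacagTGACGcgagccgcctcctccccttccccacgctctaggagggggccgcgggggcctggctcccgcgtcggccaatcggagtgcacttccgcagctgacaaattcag
Fos held 2 CRE cores and a TATA box, Fosb 1 CRE core and an EGR site, Jun the TGACATCA site and Junb 1 CRE core. Across the windows of all 7 genes, 4 held a CRE core, against 17.8% of 32851 RefSeq promoter windows of this length. Windows not shown lay farther from the deposited gene start. The RefSeq start was 671 bases inside the gene for Fosl2 and 34706 for Atf3, whose window held 1 CRE core. For Jund it was at -1210 bases, outside the deposited gene. The EGR site was in 2 of the 7 (4.7% of all windows), TGACATCA in 1 (2.93%) and TATAAA in 1 (12.4%). The full CRE was in 0 of the 7 (1.55% of all windows), TGANTCA in 0 (6.75%) and the CArG box of serum response factor in 0 (1.47%). The CArG box known from the Fos promoter lies farther upstream than this window.

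In both Piezo1KO libraries 7 of the 10 genes had a higher FPKM than in both WT libraries: Fos, Jun, Junb, Jund, Atf3, Egr1 and Ier2. The same held for 33.9% of all tested genes. Counted per assigned read instead, 4 of the 10 were higher in this way (Jund, Atf3, Egr1 and Ier2), against 7.46% of tested genes. Among the 7 genes higher by FPKM, the mean FPKM in Piezo1KO was 1.54-fold (Jun) to 4.39-fold (Egr1) that of WT. 1 gene, Ier2, passed the test over all genes and rose 2.45-fold. Fosb and Fosl2 overlapped between groups, and Fosl1 was lower in both Piezo1KO libraries at a level near the limit of counting. Levels by FPKM were not uniform within a group. Junb and Egr1 were higher in Piezo1KO 1 than in Piezo1KO 2, and Jund was higher in Piezo1KO 2.

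**Figure D1:**
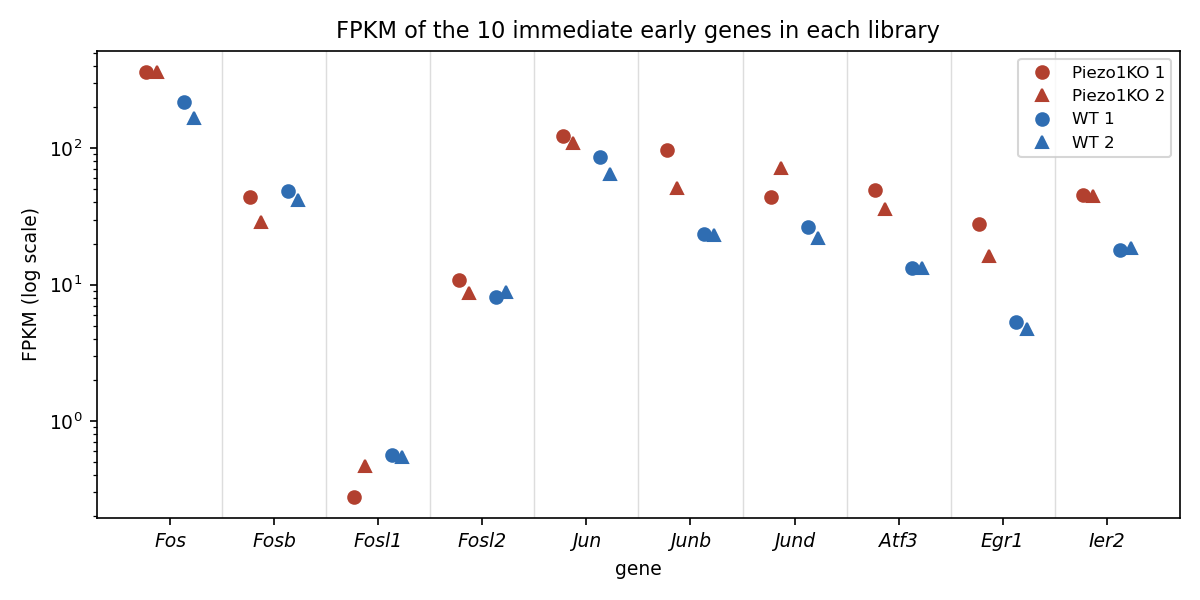
FPKM on a log axis for each of the 10 genes in each library, Piezo1KO in red and WT in blue, with circles for library 1 and triangles for library 2. Both red points lie above both blue points for Fos, Jun, Junb, Jund, Atf3, Egr1 and Ier2, the colours overlap for Fosb and Fosl2, and Fosl1 lies below an FPKM of 0.6 throughout.

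Of the FOS subunits, Fos was the most abundant. It had an FPKM of 363 and 362 in Piezo1KO 1 and 2, from 12580 and 6383 reads, and of 217 and 167 in WT 1 and 2, from 10063 and 7976 reads. Fos thus ranked among the top 154 protein-coding genes in every library. Means were 362 ± 0.394 in Piezo1KO and 192 ± 35.6 in WT (SD, n = 2 each). The log2 fold change of 0.93 ± 0.23 (SE) did not pass (limma adjusted p = 0.129). The Piezo1KO libraries were almost equal, and the spread lay between the WT libraries.

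Fosb encodes the closest relative of FOS, from which the truncated ΔFOSB is also spliced. It had an FPKM of 43.5 and 28.6 in Piezo1KO 1 and 2, against 48.7 and 41.5 in WT 1 and 2. Piezo1KO 1 lay between the WT values and Piezo1KO 2 below both. The log2 fold change was -0.34 with a 95% interval of -0.99 to 0.31 (limma adjusted p = 0.376). Fosl2, which encodes FRA2, a FOS relative of sustained rather than transient AP-1, had an FPKM of 10.9 and 8.68 in Piezo1KO 1 and 2 and of 8.12 and 8.87 in WT 1 and 2. Its groups overlapped, with a log2 fold change of 0.18 and a 95% interval of -0.24 to 0.59 (limma adjusted p = 0.464). Fosl1, which encodes FRA1, had an FPKM of 0.278 and 0.469 in Piezo1KO 1 and 2, from 7 and 6 reads, and of 0.564 and 0.547 in WT 1 and 2, from 19 and 19 reads. It stayed below the minimum mean FPKM of 1 and was not tested.

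Among the JUN subunits, Jun had an FPKM of 124 and 109 in Piezo1KO 1 and 2, against 86.7 and 64.4 in WT 1 and 2. Both Piezo1KO values were higher, by a log2 fold change of 0.63 ± 0.22 (SE) that did not pass (limma adjusted p = 0.158). Junb, an AP-1 subunit that can restrain JUN and that T helper cells use with BATF, had an FPKM of 97.8 and 51.3 in Piezo1KO 1 and 2 and of 23.6 and 23.0 in WT 1 and 2. The WT libraries were close to each other, whereas Piezo1KO 1 was far above Piezo1KO 2. Means were 74.6 ± 32.9 in Piezo1KO and 23.3 ± 0.411 in WT (SD, n = 2 each). The log2 fold change was 1.56 ± 0.33 (SE, limma adjusted p = 0.118). Jund, the JUN subunit with the steadiest expression in resting cells, had an FPKM of 44.2 and 71.2 in Piezo1KO 1 and 2, against 26.4 and 21.8 in WT 1 and 2. Here Piezo1KO 2 was the higher of the pair, and the log2 fold change was 1.19 ± 0.27 (SE, limma adjusted p = 0.124).

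Atf3 encodes a stress-induced bZIP factor that represses as a homodimer and pairs with JUN proteins. It had an FPKM of 49.7 and 36.1 in Piezo1KO 1 and 2, from 1580 and 583 reads, and of 13.1 and 13.3 in WT 1 and 2, from 558 and 581 reads. The groups were well apart, at 42.9 ± 9.63 in Piezo1KO and 13.2 ± 0.0836 in WT (SD, n = 2 each). The log2 fold change of 1.61 ± 0.20 (SE) lay just outside the threshold (limma adjusted p = 0.0531). Egr1 (ENSMUSG00000038418, bases 34859823 to 34864984 of chromosome 18) had an FPKM of 27.9 and 16.3 in Piezo1KO 1 and 2, from 1847 and 548 reads, and of 5.33 and 4.76 in WT 1 and 2, from 471 and 434 reads. Its log2 fold change of 1.89 ± 0.28 (SE) was the largest of the 9 genes tested, and it did not pass (limma adjusted p = 0.0763).

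Ier2, a nuclear immediate early protein with no DNA-binding domain of the AP-1 or EGR kind, differed most evenly. Its FPKM was 45.4 and 44.3 in Piezo1KO 1 and 2, from 1020 and 505 reads, and 17.99 and 18.57 in WT 1 and 2, from 540 and 575 reads. Within each group the libraries differed by little, and the groups were far apart. Ier2 rose by a log2 fold change of 1.25 ± 0.13 (SE) and passed (limma adjusted p = 0.0433), with a rank of 86 by p among 11085 genes.

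In the test over all genes, 1 of the 9 genes tested passed, against a background of 1.1% of the 11085 tested genes in either direction and 0.731% for higher genes. At an unadjusted p under 0.05, 7 of the 9 were higher and 0 lower, where 14.9% of tested genes were higher. By FPKM that did not overlap between groups, 7 were higher and 0 of the tested genes lower, against 33.9% higher and 35.6% lower among all tested genes. The median log2 fold change was 1.19 for the 9 genes and -0.0059 for all tested genes. The genes were chosen with earlier results of these data known, so these contrasts are descriptions and not independent support. Leaving out 1 library moved every count, because the lone library left in its group is then assumed to vary like the other group and the 1 residual degree of freedom comes from that group's pair. With the close WT pair as the source of spread, 7 of the 9 passed without Piezo1KO 1 where 52.9% of genes did, and 6 passed without Piezo1KO 2 where 14.2% did. With the wider Piezo1KO pair as the source, 0 passed without WT 1 or WT 2 where 0% did, and 4 and 3 of the 9 had an unadjusted p under 0.05 in limma, against 6.52% and 5.56% of all tested genes.

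The scaling of the libraries set much of the size of these differences. The deposited FPKM was not scaled to the assigned reads. The library size it implies was 0.962 and 0.544 times the assigned reads in Piezo1KO 1 and 2, and 1.26 and 1.28 times in WT 1 and 2. As RPM (reads scaled to the assigned total), 4 of the 10 genes were higher in both Piezo1KO libraries (Jund, Atf3, Egr1 and Ier2), against 7.46% of tested genes, and Fosb and Fosl1 were lower, against 73% of tested genes. Ier2 stood at 66.5 and 36.6 RPM in Piezo1KO 1 and 2 and at 34.5 and 36.2 in WT 1 and 2. Piezo1KO 2 (95% exact interval 33.5 to 40.0, counting error only) was not separable from WT 2 (33.3 to 39.3) on that scale. For Atf3 the intervals of Piezo1KO 2 (38.9 to 45.9) and WT 2 (33.6 to 39.7) also met. For Jund those of Piezo1KO 2 (60.4 to 68.9) and WT 1 (51.8 to 59.2) did not. Egr1 stood at 120 and 39.7 RPM in Piezo1KO 1 and 2, against 30.1 and 27.3 in WT 1 and 2, with exact intervals that did not meet. Scaled to the reads outside mitochondrial genes, the same 7 genes as by FPKM were higher, against 22.6% of tested genes, and Fosb and Fosl1 were lower, against 48.3%.

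Scaling to all assigned reads moved the median log2 fold change of all genes to -0.67, and scaling outside mitochondrial genes moved it to -0.20. Higher genes made up 66.4% of the calls over all genes as deposited, 16.2% with scaling to all assigned reads and 56.2% with scaling outside mitochondrial genes. Relative to that median, Egr1 stood at 1.83, Atf3 at 1.504, Junb at 1.44, Ier2 at 1.13, Jund at 1.07, Fos at 0.78, Jun at 0.49, Fosl2 at 0.12 and Fosb at -0.46. With scaling to all assigned reads Fosb was the 1 member that passed, where 15.4% of tested genes passed. Its log2 fold change was -1.13, lower in Piezo1KO (limma adjusted p = 0.0479). The prior degrees of freedom of that fit were infinite, so a gene's own spread between libraries did not enter its test. Jun and Fosl2 turned negative there, at -0.17 and -0.54. With quantile normalisation the difference of Fos shrank to 0.019 and that of Jun to 0.073, while Egr1 (1.85), Atf3 (1.40) and Junb (1.27) kept most of theirs.

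**Figure D2:**
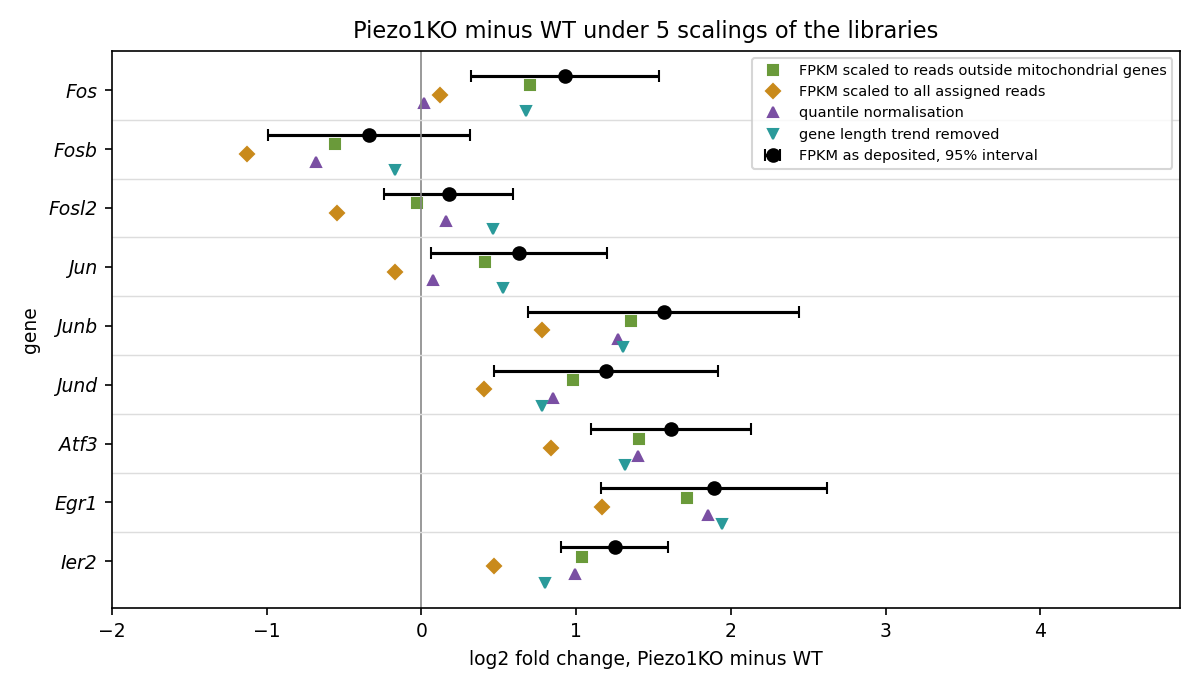
Log2 fold change of Piezo1KO minus WT for the 9 genes tested, as deposited (black, with the 95% interval of limma) and under 4 other treatments of the same values. Egr1, Atf3, Junb, Jund and Ier2 lie right of 0 in all 5, Fos does so narrowly, at 0.019 with quantile normalisation, and Fosb lies left of 0 in all 5.

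Ratios between genes of 1 library do not depend on that scaling. Fos made up 53.1% and 57.3% of the summed FPKM of the 7 FOS and JUN genes in Piezo1KO 1 and 2, and 52.8% and 51.0% in WT 1 and 2. Fosb took 6.37% and 4.53% in Piezo1KO 1 and 2, against 11.8% and 12.7% in WT 1 and 2. The Fos to Fosb ratio was accordingly 8.33 and 12.7 in the Piezo1KO libraries and 4.45 and 4.01 in the WT libraries. Junb took 14.3% and 8.12% in Piezo1KO 1 and 2 and 5.74% and 7.05% in WT 1 and 2, while Jund took 6.48% and 11.3% in Piezo1KO 1 and 2 and 6.41% and 6.68% in WT 1 and 2. The sum of the 4 FOS genes over the 3 JUN genes was 1.57 and 1.73 in Piezo1KO 1 and 2, against 2.01 and 1.99 in WT 1 and 2. Neither ratio overlapped between groups, and no exact test of 2 against 2 libraries can give a p under 0.3333, so none was made. Separation was not particular to these ratios, as Junb to Fosb also separated (2.25 and 1.79 against 0.485 and 0.554), whereas Jund to Junb overlapped. Ratios of genes of unlike length also carry the length trend given below. With that trend removed, log2 fold changes were 0.68 for Fos and -0.17 for Fosb, against 0.93 and -0.34 as deposited.

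**Figure D3:**
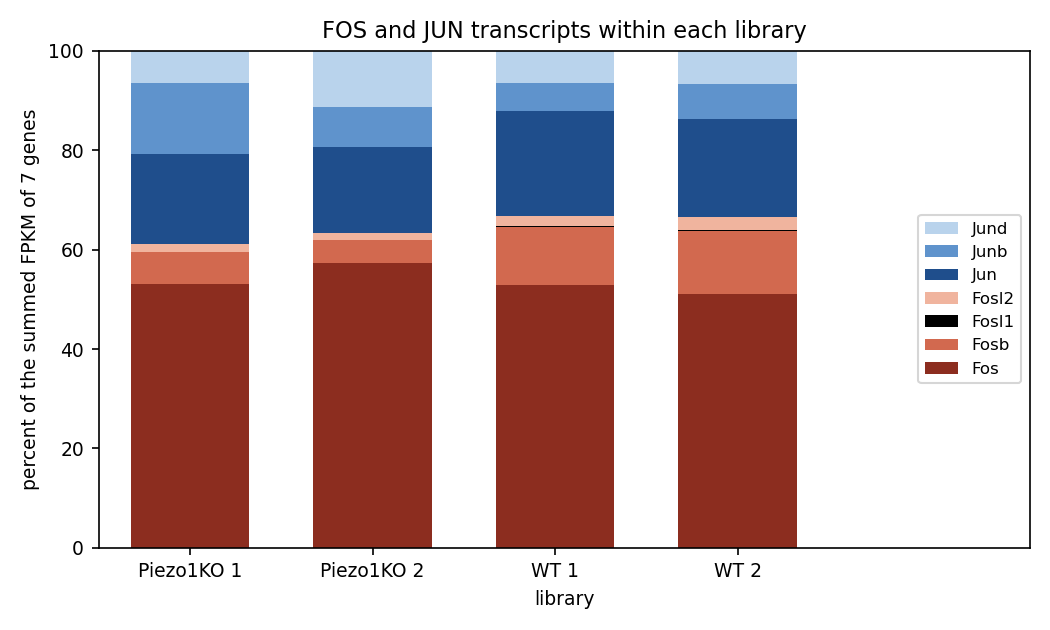
Stacked bars of the 7 FOS and JUN genes as a percentage of their summed FPKM in each library, FOS genes in red shades with Fosl1 in black and JUN genes in blue shades. The Fosb band is narrower in both Piezo1KO libraries, at 6.37% and 4.53% against 11.8% and 12.7% in WT, and the Junb band is widest in Piezo1KO 1.

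FPKM is per deposited gene length, and the genes are ordered here by FPKM. The fold change moved with that length, as given below. The order in each group is therefore 1 of FPKM and not of transcript numbers. In Piezo1KO the means ran from Fos (362) and Jun (116) through Junb (74.6), Jund (57.7), Ier2 (44.9), Atf3 (42.9), Fosb (36.1) and Egr1 (22.1) to Fosl2 (9.77) and Fosl1 (0.374). The ranges of neighbours overlapped between Junb and Jund, Jund and Ier2, Ier2 and Atf3, and Atf3 and Fosb. In WT the order was Fos (192), Jun (75.5), Fosb (45.1), Jund (24.1), Junb (23.3), Ier2 (18.3), Atf3 (13.2), Fosl2 (8.50), Egr1 (5.04) and Fosl1 (0.556), and only the ranges of Jund and Junb overlapped. Within Piezo1KO, library 2 stood at 0.525 of library 1 for Junb, 0.584 for Egr1, 0.657 for Fosb and 0.726 for Atf3, at 1.61 for Jund, and at 0.998 for Fos and 0.974 for Ier2. Within WT, library 2 stood at 0.742 (Jun) to 1.09 (Fosl2) of library 1.

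Gene length moved with the fold change across the table. Among 9940 tested protein-coding genes, the shortest quartile (up to 2737 bases) had a median log2 fold change of 0.43, and the longest quartile (6682 bases or more) one of -0.31. Ier2 (1522 bases), Jund (1668), Atf3 (2154), Junb (2301) and Fos (2352) belonged to the shortest quartile, Jun (3189) to the second, Egr1 (4484) and Fosb (6243) to the third and Fosl2 (9680) to the longest. Spearman's rho of length and fold change was -0.50 over the 9 genes and -0.56 over the 9940, which share the same 4 libraries. The 2 longest of the 9 genes were the 2 whose groups overlapped. With the length trend removed, log2 fold changes were 1.94 for Egr1, 1.32 for Atf3, 1.30 for Junb, 0.80 for Ier2, 0.78 for Jund, 0.68 for Fos, 0.53 for Jun, 0.46 for Fosl2 and -0.17 for Fosb, and Ier2 no longer passed (limma adjusted p = 0.148). The 182 protein-coding genes whose transcripts all have 1 exon, Jun, Jund and Ier2 among them, had a median of 0.18. The part of length in the members' values was not tested further.

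**Figure D4:**
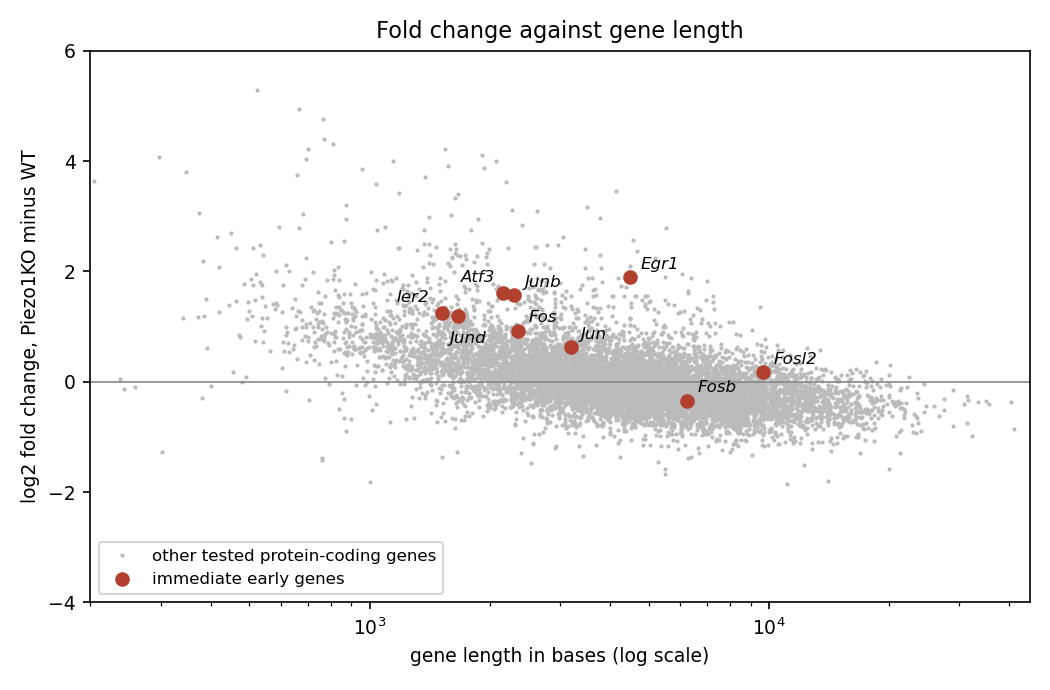
Log2 fold change of Piezo1KO minus WT against gene length on a log axis for tested protein-coding genes (grey) and the 9 immediate early genes tested (red), with 7 grey genes beyond the axes. Fold changes fall with length across the cloud, and Egr1 lies at 4484 bases and 1.89, where its length quartile has a median of -0.14.

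Genes around the 10 were then described by lists chosen by role, with earlier results of these data known. The length trend given above also enters the values of these lists. With it removed, Csrnp1 stood at 2.35, Btg1 at 1.37, Gadd45g at 0.86, Maff at 1.02 and Mmp13 at 1.48, and none of these passed. Hspb1 then stood at 0.62 and Atf7 at -0.28. The part of length in the list medians was not tested. Of 32 other immediate early genes, 31 were tested. In limma, where 0.731% of all tested genes passed as higher, 3 of the 31 rose and 0 fell. These were Csrnp1, a nuclear immediate early protein, at 2.41 ± 0.19 (log2 fold change and SE, limma adjusted p = 0.0340), the antiproliferative gene Btg1 at 1.26 ± 0.14 (adjusted p = 0.0465) and the growth arrest gene Gadd45g at 1.42 ± 0.16 (adjusted p = 0.0493). Csrnp1 had an FPKM of 26.9 and 20.1 in Piezo1KO 1 and 2 and of 3.83 and 3.31 in WT 1 and 2. Gadd45b, a stress sensor of the same family as Gadd45g, had 33.1 and 17.6 in Piezo1KO 1 and 2 and 3.26 and 4.36 in WT 1 and 2 (limma adjusted p = 0.0704). The median log2 fold change of the list was 0.62. Without overlap between groups, 20 of the 31 genes were higher and 2 lower by FPKM, against 33.9% and 35.6% of all tested genes. Per assigned read 7 were higher and 7 lower, against 7.46% and 73%. Ptgs2 and Ier5l had a WT mean FPKM under 1 and were tested only through Piezo1KO. The calls depended on the processing, as Csrnp1 lost its call in 4 of 14 alternatives, Btg1 in 7 and Gadd45g in 8.

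Other partners of AP-1 were mixed. Maff, a small MAF protein without an activation domain, rose by a log2 fold change of 1.22 ± 0.13 (SE, limma adjusted p = 0.0428), with an FPKM of 16.2 and 16.7 in Piezo1KO 1 and 2 and of 6.76 and 6.23 in WT 1 and 2. Of the 9 listed genes 7 were tested and no other passed, where 0.731% of all tested genes passed as higher. The list median was 0.049. Without overlap between groups, 3 of the 7 were higher and 2 lower by FPKM, against 33.9% and 35.6% of all tested genes. Per assigned read 1 was higher and 4 lower, against 7.46% and 73%. Maff lost its call in 6 of 14 alternatives. Jdp2, a repressor that pairs with JUN, stood at 0.70 and Atf7, a relative of ATF2, at -0.59 (limma adjusted p of 0.0960 and 0.156). Batf, which pairs with JUNB in T helper cells, had an FPKM of 3.33 and 1.04 in Piezo1KO 1 and 2 and of 2.20 and 1.57 in WT 1 and 2, with no separation.

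In the EGR list 3 of 5 genes were tested and 0 passed. At an unadjusted p under 0.05 in limma 2 were higher, where 14.9% of all tested genes were higher. Per assigned read 0 of the 3 were higher and 1 lower without overlap between groups, against 7.46% and 73% of tested genes. Egr2, which in T cells acts with Egr3 to limit activation, had an FPKM of 3.29 and 1.65 in Piezo1KO 1 and 2 and of 0.896 and 0.940 in WT 1 and 2 (log2 fold change 0.81, limma adjusted p = 0.159). It reached the minimum mean FPKM through Piezo1KO. Nab2, a co-repressor that EGR1 itself induces, stood at 0.69 (limma adjusted p = 0.160), and Egr4 had 0 reads in all 4 libraries.

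Upstream factors and kinases gave no call. Of 9 factors of the SRF, TCF and CREB kind, 0 passed, 1 (Elk4, at -0.45, limma adjusted p = 0.166) had an unadjusted p under 0.05, and the median was -0.19. By FPKM without overlap between groups, 1 of the 9 was higher and 6 lower, against 33.9% and 35.6% of all tested genes. Per assigned read 0 were higher and 8 lower, against 7.46% and 73%. Of 10 JNK and p38 pathway kinases tested, 0 passed in limma and 0 had an unadjusted p under 0.05, with a median of 0.038.

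Of 12 AP-1 target genes 7 were tested, and Mmp13, a collagenase, rose by a log2 fold change of 1.67 ± 0.17 (SE, limma adjusted p = 0.0391). It had an FPKM of 3.42 and 3.19 in Piezo1KO 1 and 2 and of 0.360 and 0.349 in WT 1 and 2, so it was tested only because of its Piezo1KO level, and it lost its call in 4 of 13 alternatives. Plau, the urokinase protease, and Plaur, its receptor, stood at 1.41 and 2.45, and Hmox1, which degrades haem, at 1.15 (limma adjusted p of 0.0737, 0.0756 and 0.118). Mmp13 was the 1 gene of the 7 to pass, where 0.731% of all tested genes passed as higher. The list median was 1.15. Without overlap between groups, 6 of the 7 were higher and 1 lower by FPKM, against 33.9% and 35.6% of all tested genes. Per assigned read 3 were higher and 2 lower, against 7.46% and 73%. Of 11 heat shock genes 0 passed in limma, 5 had an unadjusted p under 0.05, all higher, where 14.9% of tested genes were higher, and the median was 0.27. Of these 5, Hspa1a and Hspb1 had a WT mean FPKM under 1 and were tested only through Piezo1KO. Per assigned read 3 of the 11 were higher and 6 lower without overlap between groups, against 7.46% and 73% of tested genes. Hspa1a, an inducible HSP70 gene with a near-identical copy in Hspa1b, had an FPKM of 14.9 and 4.95 in Piezo1KO 1 and 2 and of 1.13 and 0.431 in WT 1 and 2, and Hspa1b had 35.2 and 21.99 in Piezo1KO and 16.7 and 9.01 in WT. Hspb1 stood at 1.23 and Dnajb1 at 0.60 (limma adjusted p of 0.117 and 0.127).

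**Figure D5:**
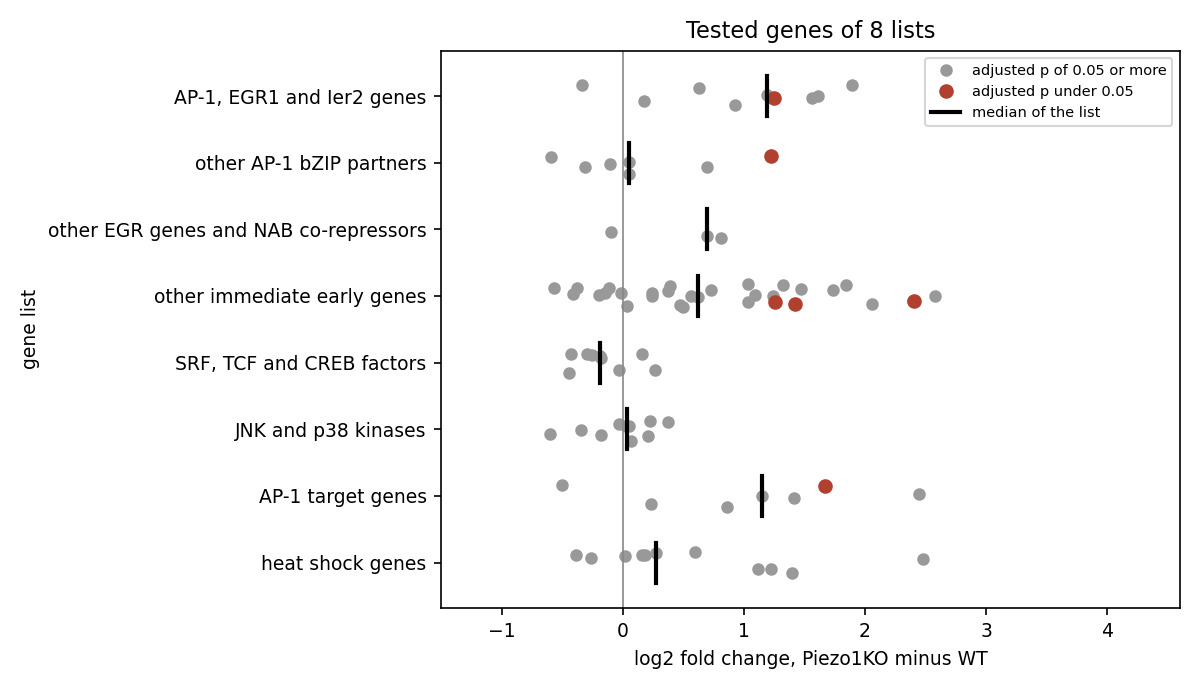
Log2 fold change of Piezo1KO minus WT for each tested gene of 8 lists, with genes that passed in red, the others in grey and list medians as black bars. Medians lie at 1.19 for the AP-1, EGR1 and Ier2 genes, 1.15 for AP-1 targets and 0.62 for other immediate early genes. They lie at -0.19 and 0.038 for the upstream factors and kinases. The values are as deposited, with the length trend not removed.

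The 5 genes whose centred log2 profile over the 4 libraries lay nearest to the mean profile of the 9 genes were Cd36, Cd37, Arl4c, Olfm1 and Lcp2, at Euclidean distances of 0.032 to 0.089. Cd36, the nearest, had an FPKM of 6.35 and 4.98 in Piezo1KO 1 and 2 and of 2.60 and 2.19 in WT 1 and 2. Cd37, Arl4c, Olfm1 and Lcp2 had an FPKM under 1 in both WT libraries and were tested only through Piezo1KO. Likeness over 4 libraries is a description of these libraries alone.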

How the data were processed

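RNA was sequenced from 2 Piezo1KO and 2 WT libraries. Per the labels' protocols, total RNA was column-purified and made into libraries with a SMARTer mRNA kit. Per the submitters' processing notes, the tools were fastp 0.19.7 and featureCounts 1.5.0-p3 and the build mm10 (GRCm38). Aligner, annotation release and FPKM formula: not given in the sources used here. The authors deposited 1 FPKM value per gene and library. Multiplying FPKM by gene length recovered whole reads for 100% of nonzero values (tolerance 0.05 reads). Of the gene IDs, 54495 matched GENCODE M21, 53585 of them with the deposited coordinates.

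For the test, limma 3.58.1 (R 4.3.3, eBayes with intensity trend, two-sided) was fitted to log2(FPKM + 1) of the 11085 genes whose mean FPKM reached 1, with a Benjamini-Hochberg threshold of 0.05. This scale understates changes of low genes. With 2 residual and 2.59 prior degrees of freedom, pooled variance carries the calls. Replicates were not near-identical (chi-square per degree of freedom 245 for Piezo1KO and 7.59 for WT).

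Members and lists were chosen with earlier results of these data known. Named were all members, Piezo1, up to 4 genes per list with the smallest unadjusted p under 0.05, and the 5 genes of nearest profile; Batf and Egr4 were named after their values were seen. Alternatives were another pseudocount (0.1), no filter or a mean FPKM of at least 5, no trend, 4 rescalings, voom on recovered reads, the replicate number as a block, and leaving out each library.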

Additional observations from a re-analysis of the deposited data

How the results depend on the processing

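Of the 10 genes, the number that passed in limma was 1 with the values as deposited. It was 0 without a filter on low values, with scaling to reads outside mitochondrial genes, with quantile normalisation and with the length trend removed (7, 6, 5 and 7 of them at an unadjusted p under 0.05, against 17.6%, 30.9%, 30.2% and 23.0% of all genes tested in those fits), 2 in voom and 0 to 7 with 1 library left out. Over all genes, 122 passed, against 1 without a filter, 68 at a mean FPKM of at least 5, 192 with quantile normalisation, 1707 with scaling to all assigned reads, 7 with the length trend removed, 82 in voom on recovered reads and 0 to 5859 with 1 library left out. Higher genes were 66.4% of calls as deposited, 85.3% at a mean FPKM of at least 5, 85.7% with the length trend removed and 87.8% in voom. With the replicate block, 3 of the 10 genes (Atf3, Egr1 and Ier2) and 264 genes in all passed; the labels give the numbers no meaning, the deposited columns number the WT libraries 2 and 3 in place of the titles' 1 and 2, and the deviations of same-numbered libraries had a correlation of -0.033, so the libraries share at most a number. With scaling to all assigned reads, the median log2 fold change of all genes was -0.67 and 15.4% of tested genes passed. The prior degrees of freedom of that fit were infinite, so a gene's own spread between libraries did not enter its test. On that scale Piezo1 passed, at a log2 fold change of -1.87. With 1 library left out it lay at -1.73 to -0.55 and passed without Piezo1KO 1 and without Piezo1KO 2 (limma adjusted p of 0.00157 and 0.0299). The sign turned for Fosl2 (-0.54 with scaling to all assigned reads, -0.027 outside mitochondrial genes), and for Jun (-0.17), Jdp2 (-0.057), Nab2 (-0.0084) and Dnajb1 (-0.18) with scaling to all assigned reads. The signs of Fos, Fosb, Junb, Jund, Atf3, Egr1 and Ier2 held in all 14 alternatives, many of which could not turn them. Changing the filter, dropping the trend or adding the replicate block leaves a gene's fold change as it was. Leaving out 1 library cannot turn the sign of a gene whose groups do not overlap, which covers these genes except Fosb. The fold changes ran from 1.16 to 2.26 for Egr1, 0.84 to 1.84 for Atf3, 0.47 to 1.30 for Ier2 and 0.019 to 1.12 for Fos. Ier2 missed the threshold in 7 of the 14. The counts in the fits that leave out a library follow the pair that supplies the spread. The cause of the other shifts was not tested. Depth limits Fosl1, with 6 to 19 reads per library.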
